A study of Mus musculus with 6 samples.

Results

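The TNF, IL-1 and NF-κB pathway was described in kidneys of *Pkd1*-mutant mice through 10 genes, namely the cytokine genes *Tnf* and *Il1b*, the receptor genes *Tnfrsf1a*, *Tnfrsf1b* and *Il1r1*, the NF-κB subunit genes *Nfkb1*, *Nfkb2* and *Relb*, and the inhibitor genes *Nfkbia* and *Tnfaip3*. They were chosen by name out of 23276 gene symbols, and all 10 were found, in 23 of the 54721 transcripts listed. Total kidney RNA was sequenced from 6 mice at postnatal day 22. The 3 SKO mice carried KspCre and *Pkd1* F/RC, a floxed allele over a germline allele with the RC mutation that lowers *Pkd1* function. The 3 DKO mice carried the same alleles and in addition miR-17∼92 F/F, the floxed miRNA cluster. KspCre is driven by the promoter of *Cdh16*, which is active in tubule epithelium, so that immune, vascular and stromal cells of the same kidney keep their floxed alleles, while the RC allele is present in every cell of both groups. No kidneys with intact *Pkd1* were analysed here.

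TNF and IL-1β are cytokines made largely by activated macrophages, and also by injured tubule cells. Each binds a receptor at the cell surface, adaptor proteins then activate the IκB kinases, and the kinases mark IκBα, the product of *Nfkbia*, for destruction. NF-κB dimers thus freed enter the nucleus and switch on genes for chemokines, adhesion molecules and survival factors, together with *Nfkbia* and *Tnfaip3*, whose products shut the signal off again. In cystic kidneys this pathway is known for its link with interstitial inflammation.

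The level of a transcript was available as 1 value, the authors' mean over all 6 libraries as CPM, the count scaled to a library of 1000000 counts, with no value for a single kidney. No SD, no interval and no test could therefore be set on any level. The depth of each library is unknown here. Fold changes and p-values of DKO against SKO stand in the same deposited table as the authors' own comparison and were not used, so nothing below says in which group a gene was higher. The deletion of the cluster could not be checked in single kidneys for the same reason. Over all 6 kidneys, *Mir17hg*, the host transcript of the cluster, had a mean of 4.21 CPM, *Pkd1* 31.8 CPM and *Cdh16* 480.4 CPM.

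Of the 10 genes, 8 were at or above 1 CPM and both cytokine genes were below it, whereas 13001 of all 23276 genes (55.9%) were at or above 1 CPM. Here and below, that share covers non-coding genes too, since 3549 of the listed transcripts are RefSeq non-coding RNAs. The share among protein-coding genes alone was not counted.

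**Figure D1:**
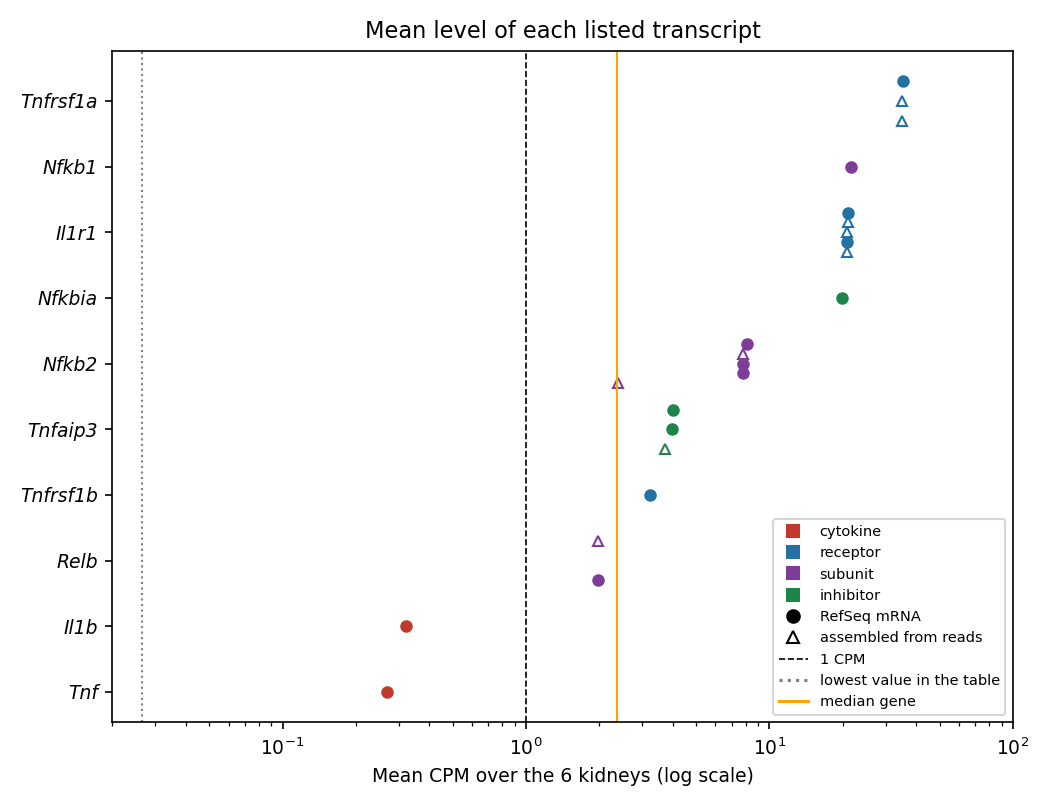
Mean CPM over the 6 kidneys (x axis, log scale) of every transcript listed for the 10 genes (y axis), with filled circles for RefSeq mRNAs, open triangles for transcripts assembled from the reads, and colours for the role of the gene. *Tnf* and *Il1b* sit at 0.269 and 0.321 CPM, left of the dashed line at 1 CPM and right of the dotted line at 0.0263 CPM, the lowest value in the table.

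*Tnf*, the gene of tumour necrosis factor, had 1 transcript with a mean of 0.269 CPM (-1.89 on the log2 scale). *Il1b*, the gene of IL-1β, had 1 transcript with a mean of 0.321 CPM (-1.64 on the log2 scale). Both means lay above the lowest value, at 10.2 and 12.2 times that value of 0.0263 CPM, which 4617 transcripts shared. In RNA of a whole kidney, few cells with much of a transcript and many cells with little of it cannot be told apart.

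The receptor genes were well above their ligands. *Tnfrsf1a*, which encodes the TNF receptor found on most cell types, had means of 35.1 to 35.4 CPM over its 3 transcripts. *Tnfrsf1b* encodes the other TNF receptor, which is found mainly on immune and endothelial cells, and its 1 transcript had a mean of 3.23 CPM. *Il1r1*, the gene of the signalling receptor for IL-1, had 5 transcripts with means of 20.90 to 20.97 CPM. The transcripts of *Tnfrsf1a* differed at most 1.01-fold from each other and those of *Il1r1* by less, so that the transcripts of a gene were close to repeats of one value.

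The subunit genes covered a wider range. *Nfkb1*, the gene of p105 and p50, had 1 transcript with a mean of 21.6 CPM. *Relb*, whose product pairs with p52 in the non-canonical branch, had 2 transcripts with the same mean, 1.97 CPM. *Nfkb2*, the gene of p100 and p52, had 5 transcripts. Of these, 4 lay between 7.80 and 8.09 CPM, and 3 of them shared one value to all digits listed. The remaining transcript of *Nfkb2* was assembled from the reads and had a mean of 2.40 CPM, 3.38-fold below the highest. In the annotation *Nfkb2* shares 299 exonic bases with *Psd* and 531 with a bidirectional promoter lncRNA, both on the opposite strand, and which strand the low transcript lies on was not examined.

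*Nfkbia* had 1 transcript with a mean of 19.8 CPM. *Tnfaip3*, the gene of A20, an enzyme that edits ubiquitin chains on receptor complexes, had 3 transcripts with means of 3.73 to 4.03 CPM. A CPM value grows with the length of the transcript as well as with its abundance. The lengths of these genes' mRNAs ran from 1356 nucleotides for *Il1b* to 5819 for *Il1r1*.

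Levels of different genes were therefore compared as CPM per kb of mRNA. On this scale the order was *Tnfrsf1a* with 16.4 CPM per kb, *Nfkbia* with 12.5, *Nfkb1* with 5.24, *Il1r1* with 3.60, *Nfkb2* with 2.57, *Tnfaip3* with 0.912, *Relb* with 0.892, *Tnfrsf1b* with 0.847, *Il1b* with 0.237 and *Tnf* with 0.164 CPM per kb. The median over the 10 genes was 1.74 CPM per kb, beside 1.4 over the 20167 genes with a length. *Tnfrsf1a* was above 91.6% of those genes and *Nfkbia* above 88.9%, whereas *Tnf* was above 33.2% and *Il1b* above 35.1%. With no spread between kidneys, it cannot be said which neighbours in this order differ. *Tnfaip3*, *Relb* and *Tnfrsf1b* lay within a narrow range.

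**Figure D2:**
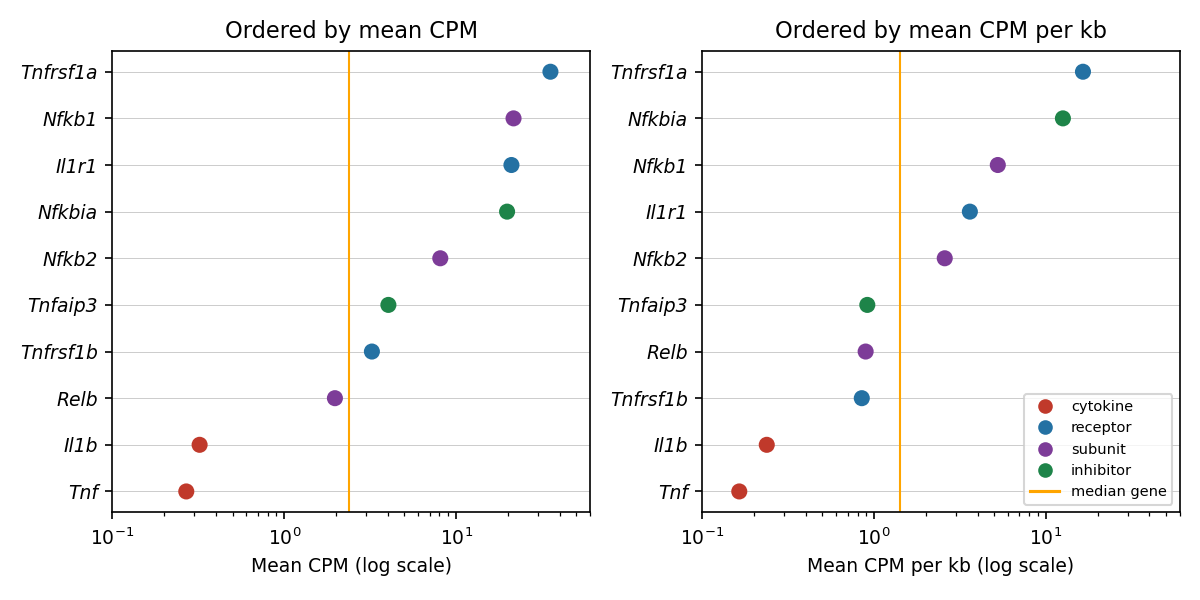
The 10 genes ordered by mean CPM (left) and by mean CPM per kb of mRNA (right), both on log scales over the 6 kidneys, with colours for roles and an orange line at the median gene. *Nfkbia* moves from the fourth place at 19.8 CPM to the second at 12.5 CPM per kb, and the cytokine genes stay lowest on both scales.

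Length changed what the pairs looked like. *Tnfrsf1a* was 10.9-fold above *Tnfrsf1b* in CPM and 19.4-fold in CPM per kb. *Il1r1* was 65.2-fold above its ligand gene *Il1b* in CPM and 15.2-fold in CPM per kb, since the *Il1r1* mRNA is long. The 15.2-fold rests on the *Il1r1* mRNA of 5819 nucleotides, at 3.60 CPM per kb. The other RefSeq mRNA of *Il1r1*, almost equal in CPM, has 4832 nucleotides and 4.33 CPM per kb. *Tnfrsf1a* was 100-fold above *Tnf* in CPM per kb. *Nfkb1* was 2.04-fold above *Nfkb2* and 5.88-fold above *Relb* in CPM per kb. *Nfkbia* was 13.7-fold above *Tnfaip3* in CPM per kb, against 4.91-fold in CPM.

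Because the study deleted the miR-17∼92 cluster, the seeds of its miRNAs were set against the 3′-UTRs of the 10 genes. A miRNA recognizes a target mainly through bases 2 to 8 of its 5′ end, the seed. The mature sequences below are those of RefSeq on GRCm38.p6, between chr14:115043684-115043706 for miR-17-5p and chr14:115044476-115044496 for miR-92a-3p on the forward strand, with the seed in capitals, and they fall into 4 seed families, in which miR-17 and miR-20a share one seed and miR-19a and miR-19b another.
miR-17-5p: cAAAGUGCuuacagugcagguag
miR-20a-5p: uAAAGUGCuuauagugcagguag
miR-18a-5p: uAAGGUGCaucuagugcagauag
miR-19a-3p: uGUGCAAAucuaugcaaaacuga
miR-19b-3p: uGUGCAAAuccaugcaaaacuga
miR-92a-3p: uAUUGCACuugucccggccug

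A match was the reverse complement of the seed, 7 bases long, in the 3′-UTR of the gene's most abundant RefSeq mRNA. For the miR-17 seed, whose match reads GCACTTT, the count was 0 of the 10 genes, while a match was present in 11% of 18921 genes with a 3′-UTR. With the last base of the seed left out, a match of 6 bases, CACTTT, was found in *Tnfrsf1a* and *Il1r1*, against 33.4% of all genes. *Tnf*, *Il1r1* and *Tnfaip3* held a match to the miR-19 seed, TTTGCAC, as did 10% of all genes. *Tnfaip3* also held 1 match to the miR-18 seed, GCACCTT, which 7.22% of all genes held. *Tnf* also held 1 match to the miR-92 seed, GTGCAAT, which 5.98% of all genes held. A match describes the letters and does not show that the site is used.

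These 5 matches are shown with their surroundings in the direction of the mRNA, as DNA, with the match in capitals. They lie at chr17:35199711-35199717 and chr17:35199758-35199764 for *Tnf*, chr1:40315880-40315886 for *Il1r1*, and chr10:19001017-19001023 and chr10:19002068-19002074 for *Tnfaip3*, on GRCm38, the assembly of mm10. The *Il1r1* gene is on the forward strand and the others on the reverse strand.
Tnf, miR-19: ctctatttataTTTGCACttattatttat
Tnf, miR-92: tcttccctgagGTGCAATgcacagccttc
Il1r1, miR-19: tgttgcaaaagTTTGCACgtgcaaccgta
Tnfaip3, miR-19: agtttgtgaaaTTTGCACagttgtctttc
Tnfaip3, miR-18: ctcggctgtatGCACCTTctagacagcag

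Of these matches, that of *Tnfaip3* to miR-19 was followed by an A opposite the first base of the miRNA, which makes a match of 8 bases that 4.51% of all genes held. The 3′-UTRs differed greatly in length, and a long one holds more matches to any short sequence. *Il1r1* had 3864 nucleotides, *Tnfrsf1b* 2324, *Tnfaip3* 1821 and *Tnf* 764, whereas *Nfkb2* had 133, and the median was 606 over the 10 genes and 785 over all genes. *Tnfrsf1b*, with the second longest 3′-UTR of the 10, held no match of 7 bases to any of the 4 seeds.

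**Figure D3:**
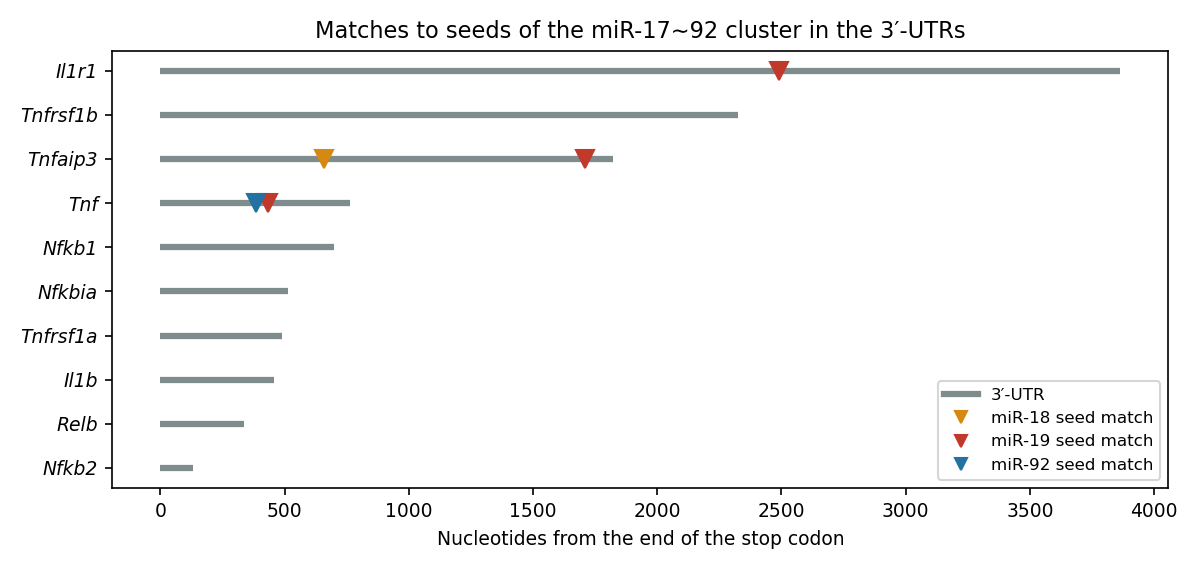
The 3′-UTRs of the 10 genes drawn to scale from the end of the stop codon (x axis, nucleotides), with triangles at matches of 7 bases to the seeds of miR-18, miR-19 and miR-92. Matches are drawn in *Tnf*, *Tnfaip3* and *Il1r1*, and the other 7 genes hold none.

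The *Tnf* match to miR-19 lay at positions 428 to 434 of the 3′-UTR, within a stretch rich in A and T. The pentamer ATTTA, the core of AU-rich elements that speed the decay of cytokine mRNAs, occurred 8 times in the *Tnf* 3′-UTR between positions 421 and 635, with 1 pentamer before the match and 7 after it. As many or more were found in 7.90% of all genes, whose median was 1. *Il1r1* held 8 as well, over a 3′-UTR about 5 times as long. *Tnfaip3* held 5, *Il1b* and *Nfkb1* held 4 each, and *Tnfrsf1a* and *Relb* held none.

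The NF-κB proteins bind κB sites, and *Nfkbia*, *Tnfaip3*, *Nfkb2* and *Tnf* are textbook targets of NF-κB. Promoter sequences of RefSeq (GRCm38.p6, from 250 bases before to 50 after a start site) were matched for 8 of the 10 genes, not for *Nfkb1* and *Relb*. A loose κB pattern of 10 bases, GGG, then any 5 bases, then CC, was sought on both strands with overlaps allowed and was found in 7 of these 8 genes, all but *Il1b*, and in 53.5% of 27025 genes. A narrower consensus, with a purine at the fourth base and pyrimidines at the seventh and the eighth, was found in *Nfkbia*, *Tnfaip3*, *Nfkb2* and *Il1r1*, that is 4 of the 8, and in 9.55% of all genes. *Nfkb2* has 3 promoters in that table and *Tnfaip3* and *Il1r1* have 2 each, which gives them more bases to search. Among genes with 1 promoter the narrower consensus was found in *Nfkbia* alone of 5 members and in 8.01% of 22862 genes. The loose pattern was found in 4 of those 5 members and in 49.7% of those 22862 genes.

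All sites of the narrower consensus in these genes are listed on the strand of the gene, with the match in capitals and the first base counted from the start site, negative before it. The *Nfkbia* site at chr12:55492667-55492676 began at -29. The *Tnfaip3* sites at chr10:19015526-19015535 and chr10:19015413-19015422 began at -125 and -12 of one start site, and the *Il1r1* site at chr1:40266354-40266363 began at -232 of one. At the upstream start of *Nfkb2*, sites began at -39, -38 and -11, with positions chr19:46304698-46304707, chr19:46304699-46304708 and chr19:46304726-46304735, the first overlapping the second. At a downstream start of *Nfkb2*, sites began at -236 and 11, with positions chr19:46305459-46305468 and chr19:46305705-46305714. The *Nfkbia* and *Il1r1* sites, the *Tnfaip3* site at -12 and the *Nfkb2* sites at -38 and -236 match on the strand opposite to the gene alone.
Nfkbia, -29: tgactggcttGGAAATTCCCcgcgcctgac
Tnfaip3, -125: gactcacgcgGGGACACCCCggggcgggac
Tnfaip3, -12: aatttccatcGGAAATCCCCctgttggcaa
Il1r1, -232: cagggattttGGAATGCCCCcaaggagatg
Nfkb2, -39: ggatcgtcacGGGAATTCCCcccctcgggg
Nfkb2, -38: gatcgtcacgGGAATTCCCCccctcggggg
Nfkb2, -11: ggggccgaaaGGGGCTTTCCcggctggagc
Nfkb2, -236: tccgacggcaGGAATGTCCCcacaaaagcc
Nfkb2, 11: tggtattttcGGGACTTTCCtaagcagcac

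The 10 genes lie on 10 different chromosomes of GRCm38. The cytokine genes are compact, *Tnf* at chr17:35199381-35202007 with 4 exons in the mRNA shown and *Il1b* at chr2:129364570-129371139 with 7, both on the reverse strand. The receptor genes lie at chr6:125349362-125362484 for *Tnfrsf1a*, chr4:145213463-145246870 for *Tnfrsf1b* and chr1:40225080-40317257 for *Il1r1*. *Nfkb1* at chr3:135584655-135691547, with 25 exons, spans the most bases of the 10, beside *Nfkb2* at chr19:46304320-46312385 and *Relb* at chr7:19606217-19629438. The inhibitor genes lie at chr12:55489410-55492647 for *Nfkbia* and chr10:19000910-19015657 for *Tnfaip3*, both on the reverse strand. *Il1b* shares 25 exonic bases with the antisense gene *Il1bos*. The other members but *Nfkb2* share no exonic base with another annotated gene.

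The wider pathway was listed by role, 81 genes in all including the 10, and 58 of them were at or above 1 CPM, 71.6% beside 55.9% of all genes.

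**Figure D4:**
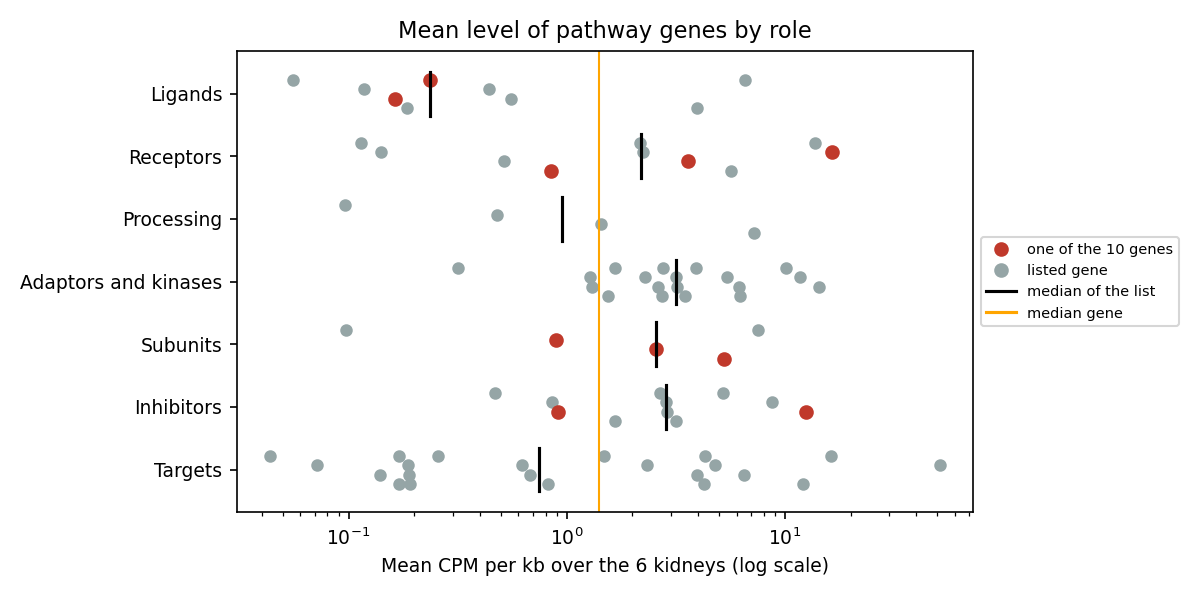
Mean CPM per kb over the 6 kidneys (x axis, log scale) of the listed pathway genes by role (y axis), with the 10 genes in red, a bar at the median of each list and an orange line at the median gene, 1.4 CPM per kb. The ligand list has its median at 0.237 CPM per kb, below those of the receptor, adaptor, subunit and inhibitor lists.

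Each count by role stands beside the 55.9% of all genes at or above 1 CPM. Among 9 ligand genes, 7 were below 1 CPM, *Tnf* and *Il1b* with them. The exceptions were *Tnfsf12*, the gene of TWEAK, with 9.43 CPM, and *Il33*, the gene of an alarmin stored in nuclei, with 10.1 CPM. Per kb, the lowest ligand was *Lta*, the gene of lymphotoxin-α, at 0.0554 and the highest *Tnfsf12* at 6.57 CPM per kb. *Lta* was at 2.91 times the lowest value of 0.0263 CPM. Of the 10 receptor genes, 8 were at or above 1 CPM. *Tnfrsf1a* was the highest of them per kb and *Il1rl1*, the receptor of IL-33, the lowest at 0.114 CPM per kb. *Il1r2*, a decoy receptor for IL-1, was also below 1 CPM, at 0.201 CPM.

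Genes that pass the signal inside the cell were mostly present. Of 20 adaptor and kinase genes, 19 were at or above 1 CPM, beside 55.9% of all genes, and 11 at or above 10 CPM. For scale, the 10.1 CPM of *Il33* lay above 67.9% of all genes. *Tab2*, an adaptor of the kinase TAK1, was the highest at 14.3 CPM per kb, and *Traf1*, at 0.739 CPM and 0.318 CPM per kb, the one below 1 CPM. Of 5 subunit genes, *Rela*, which encodes p65, the usual partner of p50, had the highest level at 7.50 CPM per kb, above *Nfkb1*. *Rel*, which is used mainly in lymphoid cells, had the lowest at 0.0976 CPM per kb and 0.728 CPM. All 11 genes listed as inhibitors were at or above 1 CPM, from *Il1rn*, the gene of the IL-1 receptor antagonist, at 0.467 CPM per kb to *Nfkbia*. The list includes *Bcl3* and *Nfkbiz*, so not every gene in it need act only as an inhibitor.

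Of 4 processing genes, 2 were at or above 1 CPM. *Adam17*, the gene of the protease that sheds TNF from the membrane, had 31.9 CPM and 7.19 CPM per kb. *Nlrp3*, a sensor of the inflammasome that matures IL-1β, had 0.387 CPM and 0.0963 CPM per kb. *Casp1*, the gene of the caspase that cuts IL-1β, was below 1 CPM as well, at 0.719 CPM and 0.481 CPM per kb. *Pycard*, the gene of the adaptor that joins NLRP3 to the caspase, was above it, at 7.66 CPM.

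Of 22 genes known as NF-κB targets, 12 were at or above 1 CPM and 10 below it, which is near the share of all genes, 55.9%. *Lcn2*, an injury marker of tubules, had the highest level at 51.3 CPM per kb. *Csf2*, the gene of the growth factor GM-CSF, had the lowest at 0.0438 CPM per kb. Its 0.0351 CPM was only 1.33 times the lowest value of 0.0263 CPM, so its place per kb says little. *Sod2*, a mitochondrial antioxidant enzyme, followed *Lcn2* at 16.3 CPM per kb and *Ier3* at 12.1 CPM per kb. The interleukin gene *Il6* had 0.187 CPM per kb, between *Tnf* and *Il1b*. The 6 chemokine genes listed were split, with *Cxcl1* at 2.32 and *Cxcl10* at 1.48 CPM per kb above the median gene, and *Ccl5* at 0.820, *Ccl2* at 0.680, *Cxcl2* at 0.191 and *Ccl20* at 0.171 CPM per kb below it. Most of these targets respond to other factors too, so their levels do not measure NF-κB.

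The samples carried the markers of kidney. All 12 genes listed for the proximal tubule, thick ascending limb, distal convoluted tubule, principal cell and intercalated cell were above 10 CPM, with *Slc34a1* of the proximal tubule and *Umod* of the thick ascending limb highest at 423.1 and 374.4 CPM per kb. All 5 macrophage genes were at or above 1 CPM, from 3.19 CPM for *Itgam* to 25.3 CPM for *Csf1r*, and summed to 42.3 CPM, of which *Csf1r* alone made 25.3 CPM. Per kb, the 4 macrophage genes with a length ran from 0.681 for *Itgam* to 6.24 CPM per kb for *Csf1r*. The 3 endothelial genes summed to 123.9 CPM and the 3 fibroblast and pericyte genes to 225.3 CPM, both above the macrophage sum. The 2 podocyte genes summed to 46.1 CPM. The 3 neutrophil genes in the table summed to 0.928 CPM, with *S100a8* at 0.310, *S100a9* at 0.586 and *Mpo*, which is made mainly by neutrophil precursors in bone marrow, at 0.0310 CPM, and *Ly6g* had no transcript in the table. The *Mpo* level was only 1.18 times the lowest value of 0.0263 CPM. Per kb, *S100a9* had 1.13 CPM per kb, above *Itgam*. Shares of cell types cannot be read from these levels. The 3 B cell genes were at 0.190 to 0.311 CPM. Of the 4 T cell genes, *Cd4*, which macrophages can also carry, was above 1 CPM at 1.71. *Cd8a* was just below 1 CPM at 0.988, *Cd3d* was at 0.253 and *Cd3e* at 0.160 CPM. Red blood cell genes were present at 20.1 to 72.9 CPM, the globin genes with near-identical copies that make their values uncertain, and of the liver genes *Alb* had 13.4 CPM and *Apoa1* 1.4 CPM. The part of these cells in the levels of the 10 genes was not tested.

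**Figure D5:**
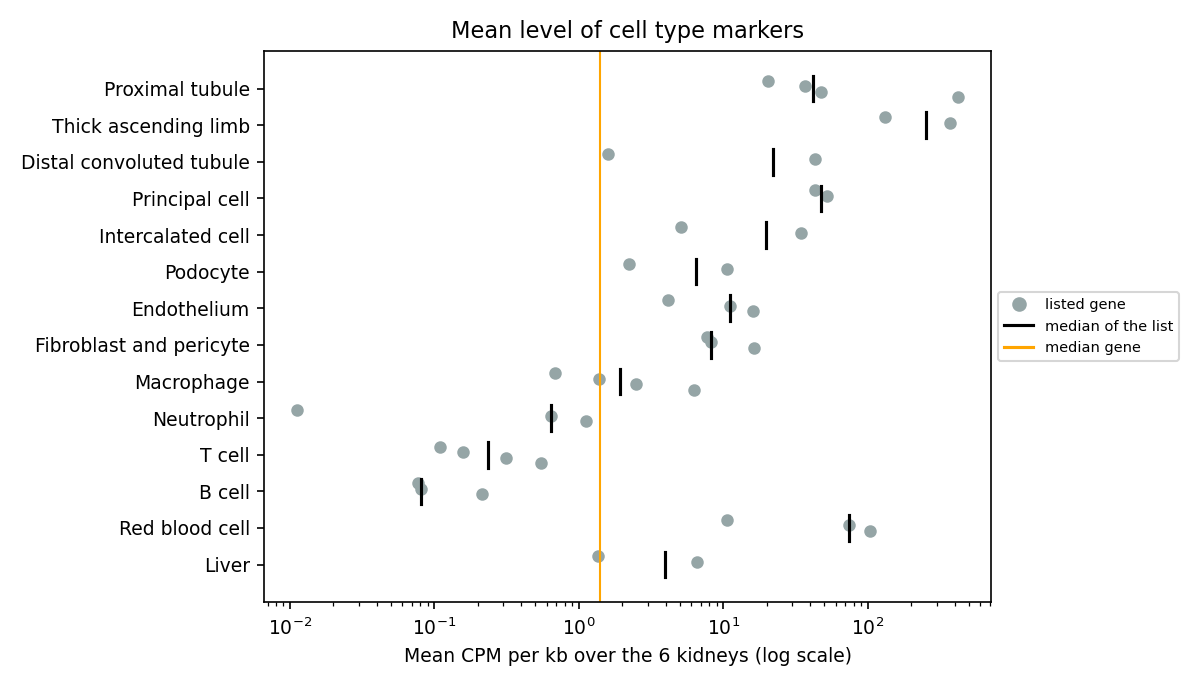
Mean CPM per kb over the 6 kidneys (x axis, log scale) of marker genes by cell type (y axis), with a bar at the median of each list and an orange line at the median gene, 1.4 CPM per kb. *Slc34a1* and *Umod* of the tubule are highest at 423.1 and 374.4 CPM per kb, and the T cell and B cell lists have medians of 0.236 and 0.0814 CPM per kb.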

How the data were processed

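RNA of 3 SKO and 3 DKO mouse kidneys was read as stranded single-end libraries. After trimming, the authors aligned reads to mm10 with TopHat (TopHat2 2.0.12 in the submitters' processing notes), discarded alignments of low mapping quality and compared groups with edgeR (3.2.4 in the notes, which also name Cufflinks, featureCounts and Subread 1.4.6). The deposited log2 values are the mean log2 CPM of each transcript over all 6 libraries, with the normalization not given in the sources used here. The deposited table also holds the log2 fold change, likelihood ratio statistic, p-value and adjusted p-value of the authors' own comparison, and none of these was used. It holds 0 values of single samples, so the planned count test could not be run.

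Levels were turned into CPM (Python 3.11.15, numpy 2.4.6, pandas 2.3.3). The transcript of highest mean stood for its gene. Of the 10 genes' transcripts, all 14 RefSeq mRNAs matched GENCODE M21 by identifier, and its lengths gave CPM per kb. Different RefSeq mRNAs of *Nfkb2* matched the same GENCODE transcript, so a matched length may not be that of the RefSeq mRNA. The deposited transcript models may differ in length. Reads may have been counted for each overlapping transcript. Depth is unknown, so precision cannot be given. The functions were tested on simulated data. The text names all 10 genes, the highest and lowest of each wider list by level, genes with no transcript, and *Pkd1*, *Mir17hg* and *Cdh16*. Other named genes were chosen after their values were seen. The genes and lists were chosen with earlier results of these data known. The pentamer count and the narrower κB consensus were added after the data were seen.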

Additional observations from a re-analysis of the deposited data

How the results depend on the processing

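Of the 10 genes, 8 stayed at or above 1 CPM with a threshold of 0.5 CPM, with the lowest or the median transcript of a gene and with RefSeq mRNAs alone, and 7 passed 2 CPM, where *Relb* was below. The count of 58 listed pathway genes ranged from 52 at 2 CPM to 66 at 0.5 CPM. The share of all genes that pass moves with the threshold too. *Relb* at 1.97 CPM lay above 48.6% of all genes, and *Ltb* at 0.513 CPM above 40.4%. In the order by CPM, 5 of the 10 genes held the place they had per kb. The count of genes with a miR-17 match was 0 with 7 or 8 bases and 2 with 6 bases. The shares of all genes were 11%, 3.29% and 33.4% for 7, 8 and 6 bases. The κB pattern was found in 6 genes on the forward strand alone, beside 40.7% of all genes. It was found in 4 with the narrower consensus, beside 9.55%, against 7 and 53.5% with the loose pattern on both strands. Leaving out a kidney, other normalizations, DESeq2 and a filter on counts were not run, since each needs values per sample. No paired analysis was possible because the table has no column for a single kidney. Low levels include the offset that edgeR adds, and their counting error is unknown.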
